A study of Rattus norvegicus with 9 samples.

Results

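Protein phosphatases are described here as the genes whose array annotation gives a single symbol that starts with Ptpr, Ptpn, Ptp4a, Ppp or Dusp, with Dusp1 set aside. The rule found 64 genes among 4736 that the annotation names with a single symbol, on 100 of the 8740 probe sets tested. Each gene was read at the brightest of its probe sets, by the mean over the 9 arrays, and 24 of the 64 genes had more than 1. By their names they are 18 receptor and 11 non-receptor tyrosine phosphatases, 2 Ptp4a phosphatases, 4 dual specificity phosphatases, 8 catalytic subunits of serine/threonine phosphatases and 21 regulatory subunits.

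Expression was measured in sympathetic neurons from superior cervical ganglia of Holtzman rat embryos at day 21, grown on collagen in serum-free medium with nerve growth factor at 100 ng/ml. All cultures had been exposed to Ara-C, an inhibitor of dividing cells, for 48 hr to reduce the non-neuronal cells, so the cultures model neurons apart from most of their usual glia. On day 5 the cultures received medium alone for 24 hr (control) or BMP-7, a bone morphogenetic protein, at 50 ng/ml for 6 hr (BMP6h) or 24 hr (BMP24h). Each condition has 3 arrays of RNA pooled over cultures, which the labels call biological replicates from 3 repeats of the culture procedure, with replicate 1 hybridized in processing batch 1 (10 µg of cRNA) and replicates 2 and 3 in batch 2 (5 µg). The study's methods state that RNA of every condition was harvested together on day 6, which would make control and BMP6h cultures of equal age. The labels place the addition of BMP-7 on day 5 for BMP6h too, so when its 6 hr began is not settled.

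Protein phosphatases remove the phosphate groups that kinases add. Receptor tyrosine phosphatases span the membrane and many carry adhesion-like outer domains that bind matrix proteoglycans or neighbouring cells, whereas the serine/threonine phosphatases share a few catalytic subunits that a large set of regulatory subunits directs to their substrates. In neurons these enzymes are known for their parts in axon growth, synapse formation and the control of MAP kinase signalling, and BMP-7 is known for causing sympathetic neurons to form dendrites.

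Expression values are log2 units of hybridization signal, so a difference of 1 is a doubling. They compare conditions for a given probe set and do not rank genes by amount of mRNA, because brightness also depends on the probes. Differences were tested with limma over all 8740 probe sets with Benjamini-Hochberg adjustment of the p-values, and "higher" and "lower" give only the sign of a difference. BMP6h replicate 2 stood apart from the other arrays. On it 18 of the 64 phosphatase genes (28.1%) lay more than 0.5 from the mean of BMP6h replicates 1 and 3, against 31.6% of all named genes, and on the other 8 arrays, measured in the same way, the share of phosphatase genes ran from 0% to 18.8%. Marker lists of cell types were compared across the arrays, and by the limit above their levels do not show which cell types were present. The glial list holds Ngfr and Glul, which the study reports as upregulated by BMP-7 in these neurons. The fibroblast and matrix list holds Mgp, which it reports as downregulated. Ptprc, in the list for macrophages and blood cells, is also a phosphatase gene of the rule. The mean level of 13 measured neuron markers (of 16) ran from 11.24 to 11.49 over the 9 arrays, that of 11 glial markers (of 14) from 7.33 to 7.52 and that of 11 markers of macrophages and blood cells (of 12) from 6.57 to 6.92. The mean of 15 fibroblast and matrix markers (of 16) was 9.60 to 9.83 on control, 9.66 to 9.73 on BMP6h and 9.39 to 9.56 on BMP24h arrays, so the BMP24h arrays lay below the control arrays. The median difference of these markers at 24 hr was -0.18, but their signs were mixed. Pdgfra, Mgp, Postn and Sparc differed by -0.61, -0.48, -0.24 and -0.18, whereas Thy1, Fn1, Timp1 and Col1a1 were 0.25, 0.15, 0.10 and 0.08 higher. The mean of 7 endothelial and mural markers (of 10) was 6.96 to 7.35 on control, 6.77 to 7.00 on BMP6h and 6.79 to 6.94 on BMP24h arrays, so the BMP24h arrays lay just below the control arrays. The markers of this list did not move together. At 24 hr Kdr differed by -1.39, with control values of 4.76, 5.59 and 7.02. Myh11, Pecam1, Flt1 and Vwf differed by -0.39, -0.19, -0.13 and -0.12, whereas Acta2 and Tagln were 0.32 and 0.13 higher. The part of these markers in the phosphatase values was not tested, and in bulk RNA fewer cells of a type and less RNA per cell cannot be told apart.

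No phosphatase gene passed an adjusted p of 0.05 in limma in any comparison. Among all 4736 named genes, 0.0422% passed for BMP6h against control, 0.211% for BMP24h against control and 0% for BMP24h against BMP6h. At an unadjusted p under 0.05 limma gave 2, 4 and 4 phosphatase genes in the same order (3.12%, 6.25% and 6.25%, beside 1.79%, 3.86% and 3.29% of all named genes), and the ordinary analysis of variance also gave 0 at the adjusted threshold in each. The lowest adjusted p of a phosphatase gene was 0.887 for BMP6h against control, 0.111 for BMP24h against control and 0.366 for BMP24h against BMP6h, the last of these both at Ptprr. The differences of the group were centred on 0, with a median of 0.00 at 6 hr and 0.00 at 24 hr against control, beside -0.03 and 0.01 over all named genes. For 39 of the 64 genes at 6 hr and 40 at 24 hr the 95% interval of the difference lay wholly within a 1.5-fold change in either direction (60.9% and 62.5%), beside 53.8% and 56.1% of all named genes.

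**Figure D1:**
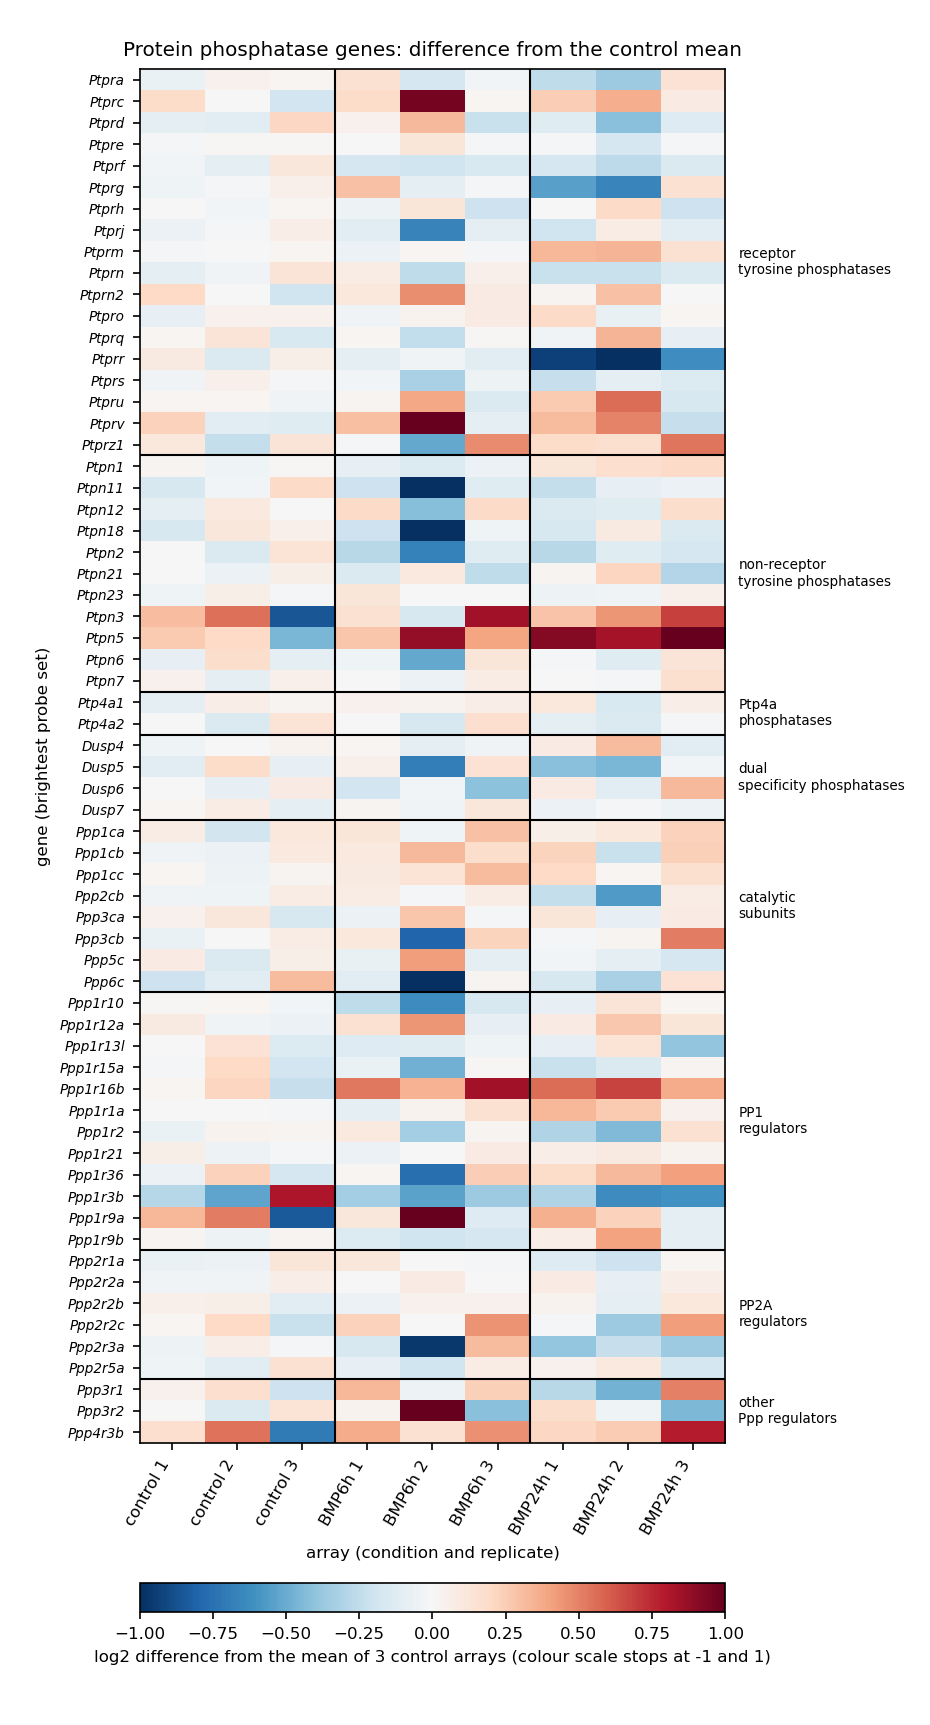
Log2 difference of each of the 64 phosphatase genes (rows, grouped by role) from its mean over the 3 control arrays, on each of the 9 arrays (columns). Most rows are pale in all conditions; Ptprr is blue on the 3 BMP24h arrays, Ptpn5 and Ppp1r16b are red there, and many isolated dark cells lie in the column of BMP6h replicate 2.

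The thresholds that the study's Methods set, an unadjusted p under 0.05 together with a fold change of at least 1.2, were passed by 5 phosphatase genes in 9 instances, each of which is called a call below. For BMP6h against control, Ppp1r16b was higher (1 of 64 genes, 1.56%, beside 0.908% of all named genes) and Ppp1r10 lower (1.56% beside 0.887%). For BMP24h against control, Ptpn5, Ppp1r16b and Ptprm were higher (3 of 64, 4.69%, beside 1.77%) and Ptprr was lower (1.56% beside 2.05%). For BMP24h against BMP6h, Ppp1r10 and Ptprm were higher (2 of 64, 3.12%, beside 1.58%) and Ptprr was lower (1.56% beside 1.63%). The limma F-test across the 3 conditions gave Ptprr alone at an unadjusted p under 0.005 (1.56% beside 0.929%). The ordinary analysis of variance, the kind of test that the study's Methods name, put Ptpn1 under 0.005 as well. Whether these shares differ from those of all genes was not tested. The counts depended on single arrays. The 2 genes at 6 hr became 0 without control replicate 3 and 6 without BMP6h replicate 3. They became 1 when control replicate 2, any 1 of the BMP24h arrays or BMP6h replicate 2 was left out. Leaving out a BMP24h array kept the 6 hr differences of Ppp1r10 (-0.35) and Ppp1r16b (0.57) and changed only the shared estimate of the spread and its degrees of freedom. The same holds in each comparison for an array of the condition that is not compared. The 4 genes at 24 hr became 2 without control replicate 1 or 3 or BMP24h replicate 1 or 2, and 6 without BMP6h replicate 2 or BMP24h replicate 3. The 3 genes for BMP24h against BMP6h became 1 when replicate 1 of any condition was left out, 7 without BMP6h replicate 2 and 6 without BMP24h replicate 3. The F-test count became 0 without BMP24h replicate 1.

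**Figure D2:**
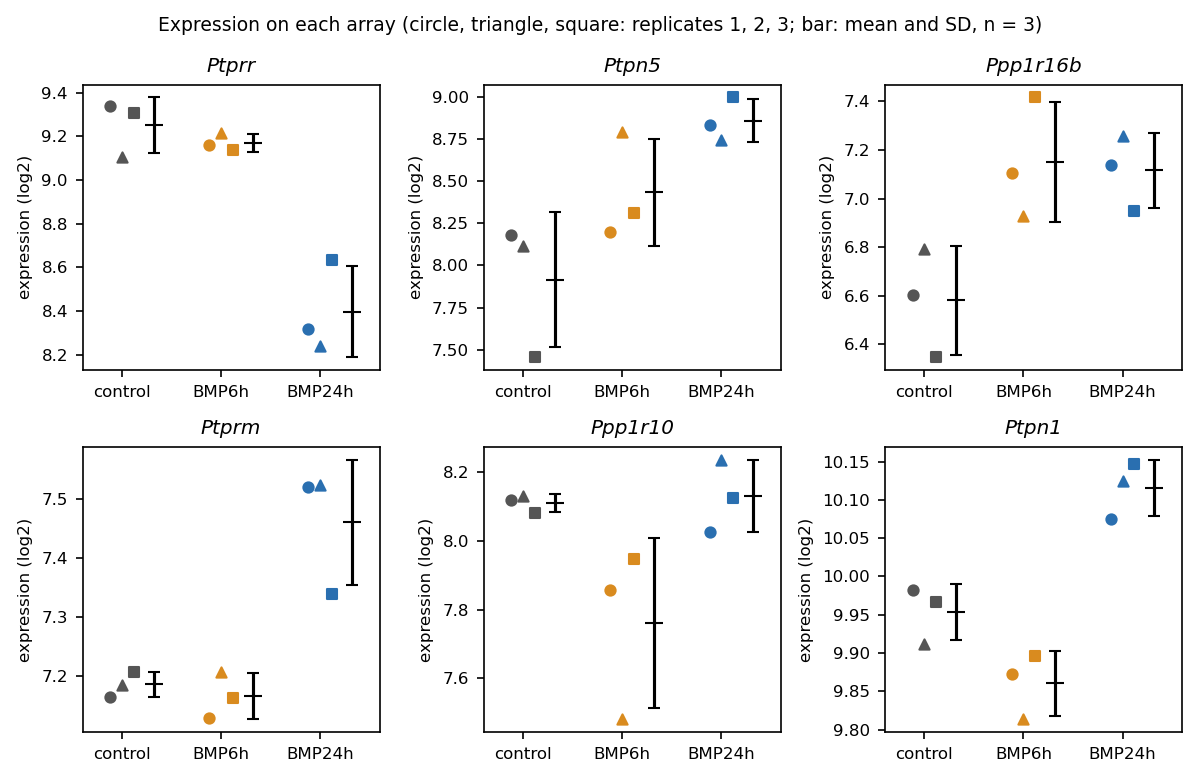
Log2 expression on each array for the 5 genes past the thresholds of the Methods and for Ptpn1, with the mean and SD of each condition (n = 3); each panel has its own axis. Ptprr sits between 8.24 and 8.63 on the BMP24h arrays and between 9.10 and 9.34 on the other 6, and the Ptpn5 values of BMP24h lie above all control values.

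Ptprr, a receptor tyrosine phosphatase whose kinase interaction motif binds MAP kinases and which dephosphorylates ERK, had the clearest pattern of the group. Its values were 9.34, 9.10 and 9.30 on the control arrays, 9.16, 9.21 and 9.14 on the BMP6h arrays, and 8.32, 8.24 and 8.63 on the BMP24h arrays. The 3 BMP24h arrays lay below all 6 others, and the control and BMP6h arrays overlapped. The difference at 24 hr was -0.85 (standard error 0.14, n = 3 arrays per condition), a 1.81-fold lower value, with an adjusted p of 0.111 in limma and an unadjusted p of 0.000393. Against BMP6h it was -0.77 (adjusted p = 0.366 in limma), and BMP6h differed from control by -0.08 with a 95% interval of -0.41 to 0.25. Within batch 1 the 24 hr difference was -1.02 and within batch 2 it was -0.77. Leaving out any 1 array kept it between -0.98 and -0.77 and past the thresholds of the Methods. The adjusted p was under 0.05 in 4 of 20 alternative settings, at 0.0301 without the batch term, 0.0191 after dim probe sets were removed, 0.0208 with an intensity trend in the variance and 0.000769 with array weights. The fit without the batch term does not count the batch adjustment already made to the deposited values, so its p is too small. The study lists Ptprr among the genes downregulated by BMP-7.

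Ptpn5, the neuron-enriched phosphatase STEP, carries a kinase interaction motif like that of Ptprr and also acts on ERK. Its values were 8.18, 8.11 and 7.45 on control, 8.20, 8.80 and 8.31 on BMP6h, and 8.84, 8.75 and 9.00 on BMP24h arrays. The BMP24h and BMP6h arrays each lay above all control arrays, BMP6h replicate 2 lay among the BMP24h arrays, and control replicate 3 was the lowest. The difference from control was 0.94 at 24 hr (standard error 0.24, 1.92-fold, unadjusted p = 0.00478, adjusted p = 0.470 in limma) and 0.52 at 6 hr (95% interval -0.04 to 1.08). At 6 hr the batches differed, with 0.02 in batch 1 and 0.77 in batch 2, whereas at 24 hr they gave 0.66 and 1.09. Without control replicate 3 the 24 hr difference was 0.69 and still passed the thresholds of the Methods. Ptpn5 and Ptprr thus stood on opposite sides of control at 24 hr. Ptpn7, the remaining phosphatase of this kinase interaction motif family, differed by 0.01 at 6 hr and 0.05 at 24 hr, with an interval of -0.22 to 0.32 at 24 hr.

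Ppp1r16b, also known as TIMAP, is a membrane-anchored regulatory subunit of protein phosphatase 1 (PP1). Its values were 6.60, 6.79 and 6.35 on control, 7.11, 6.93 and 7.42 on BMP6h, and 7.14, 7.26 and 6.95 on BMP24h arrays. All 6 BMP-7 arrays lay above all 3 control arrays, and the BMP6h and BMP24h arrays overlapped. The difference was 0.57 at 6 hr (standard error 0.18, 1.48-fold, unadjusted p = 0.0150, adjusted p = 0.887 in limma) and 0.54 at 24 hr (1.45-fold, adjusted p = 1.00). Within the batches it was 0.50 and 0.60 at 6 hr and 0.53 and 0.54 at 24 hr. The call at 6 hr was lost without control replicate 3 (0.44) or BMP6h replicate 3 (0.42), and the call at 24 hr without control replicate 1 (0.55) or 3 (0.41) or BMP24h replicate 1 (0.52) or 2 (0.46).

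Ptprm encodes receptor phosphatase mu, which binds the same protein on neighbouring cells and associates with cadherins. Its control values of 7.16, 7.19 and 7.21 and its BMP6h values of 7.13, 7.21 and 7.16 covered the same range, and the BMP24h values were 7.52, 7.52 and 7.34. The 3 BMP24h arrays lay above the 6 others. The difference was small, 0.27 from control and 0.29 from BMP6h (standard error 0.11 for each, 1.21-fold and 1.23-fold), with adjusted p values of 1.00 and 0.939 in limma. It stood in both batches, at 0.36 and 0.23 against control. Its fold change was close to the threshold of 1.2, which is 0.263 in log2. The difference from control fell short of that fold without control replicate 1 (0.26) or BMP24h replicate 1 (0.23) or 2 (0.24). Without control replicate 2 (0.27) or 3 (0.29) or BMP6h replicate 1 or 3 (both 0.27) it kept the fold. There the call was lost because the unadjusted p in limma was no longer under 0.05. The difference from BMP6h fell short of the fold without BMP24h replicate 1 (0.25) or 2 (0.26). Its call was lost on the unadjusted p in limma without control replicate 1 (0.29) or BMP6h replicate 1 (0.27) or 3 (0.29).

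Ppp1r10 encodes PNUTS, which targets PP1 to the nucleus. Its values were 8.12, 8.13 and 8.08 on control, 7.86, 7.48 and 7.95 on BMP6h, and 8.03, 8.24 and 8.13 on BMP24h arrays. The BMP6h arrays lay below all 6 others, with replicate 2 the lowest, and the control and BMP24h arrays overlapped. The difference was -0.35 for BMP6h against control (standard error 0.15, adjusted p = 0.887 in limma) and 0.37 for BMP24h against BMP6h (adjusted p = 0.939). Without BMP6h replicate 2, the array that stood apart, they were -0.20 and 0.22 and no longer passed the thresholds of the Methods. The 6 hr call lay at the edge of its threshold and was kept only when BMP6h replicate 3 was the array left out (-0.45). With 1 of the other 7 arrays left out it was lost at -0.42 to -0.34. The BMP24h against BMP6h call was likewise kept only without BMP6h replicate 3 (0.47), and the other 7 arrays gave 0.31 to 0.45.

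The start regions of the 4 genes past the thresholds of the Methods for BMP24h against control are shown, though none passed the adjusted test. They are given because BMP signals reach genes through Smad proteins, which bind short motifs. Promoters were taken from the RefSeq annotation of assembly GRCr8, as 250 bases before and 50 after a gene's annotated start, and 56 of the 64 phosphatase genes have an entry. Both strands were searched for GGCGCC, a GC-rich motif bound by the Smads of the BMP pathway, and CAGAC, the Smad box, whose reverse complement reads GTCTG. Matches are in capitals, and each sequence runs 5′ to 3′ on the strand of its gene.
Ptprr, chr7:53685989-53686288, + strand: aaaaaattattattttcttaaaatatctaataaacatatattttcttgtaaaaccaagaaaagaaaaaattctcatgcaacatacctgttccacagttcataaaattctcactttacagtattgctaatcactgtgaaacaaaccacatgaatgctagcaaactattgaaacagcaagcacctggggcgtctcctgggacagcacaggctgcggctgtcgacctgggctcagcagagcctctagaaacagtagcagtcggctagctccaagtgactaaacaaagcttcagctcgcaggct
Ptpn5, chr1:106816085-106816384, - strand: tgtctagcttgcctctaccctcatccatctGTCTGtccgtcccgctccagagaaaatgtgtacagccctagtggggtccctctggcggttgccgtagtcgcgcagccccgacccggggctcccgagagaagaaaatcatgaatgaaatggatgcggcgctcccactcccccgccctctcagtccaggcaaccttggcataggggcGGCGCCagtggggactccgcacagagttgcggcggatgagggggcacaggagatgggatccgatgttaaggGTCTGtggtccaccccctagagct
Ppp1r16b, chr3:167743741-167744040, + strand: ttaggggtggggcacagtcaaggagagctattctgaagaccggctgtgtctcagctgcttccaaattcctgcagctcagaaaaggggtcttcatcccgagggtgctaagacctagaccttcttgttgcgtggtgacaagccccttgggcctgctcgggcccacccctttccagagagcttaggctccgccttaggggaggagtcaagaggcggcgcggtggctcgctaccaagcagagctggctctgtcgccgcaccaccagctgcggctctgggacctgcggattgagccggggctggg
Ptprm, chr9:114790428-114790727, - strand: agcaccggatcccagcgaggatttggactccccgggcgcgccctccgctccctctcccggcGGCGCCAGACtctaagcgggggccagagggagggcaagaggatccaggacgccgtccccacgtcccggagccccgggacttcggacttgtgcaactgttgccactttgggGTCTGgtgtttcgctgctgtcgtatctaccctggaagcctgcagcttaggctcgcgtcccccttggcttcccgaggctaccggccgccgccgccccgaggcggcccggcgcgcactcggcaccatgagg
The Ptpn5 window holds GGCGCC once and CAGAC at 2 places, both on the reverse strand. The Ptprm window also holds GGCGCC once and CAGAC at 2 places, and there 1 CAGAC shares its first base with the GGCGCC. The windows of Ptprr and Ppp1r16b hold neither, which says only that these letters are not in these bases. GGCGCC occurs in 11.0% of all 33469 promoters and in 20 of the 56 phosphatase promoters (35.7%), and CAGAC in 50.1% and 44.6%. The larger set is every promoter entry, not only those of genes on the array, and the sets were not matched for GC content. Whether the shares differ was not tested. The GC content of the 4 windows is 40.3% for Ptprr, 62.0% for Ptpn5 and Ppp1r16b and 70.0% for Ptprm. A match is a description of the sequence and does not show binding, and a gene may have other start sites.

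Among the receptor tyrosine phosphatases, Ptprr was the only 1 of 18 with a difference from control beyond 1.5-fold in the fit at 24 hr. The 18 differences at 24 hr ran from -0.85 to 0.29, with a median of -0.04 and with 8 genes higher and 10 lower. Ptprf (LAR), which binds heparan sulfate proteoglycans, had values of 9.96, 9.90 and 10.10 on control, 9.82, 9.79 and 9.83 on BMP6h, and 9.82, 9.73 and 9.84 on BMP24h arrays. All 6 BMP-7 arrays lay below the 3 control arrays, but the difference was -0.17 at 6 hr and -0.19 at 24 hr with intervals that include 0 (-0.45 to 0.07 at 24 hr). Ptprd, whose probe set was among the 5 dimmest of the group, differed by -0.22 at 24 hr (interval -0.65 to 0.20). Ptprn, a protein of dense-core vesicles known as an islet autoantigen (11.22 ± 0.11 on control arrays, SD, n = 3), differed by -0.20 at 24 hr (interval -0.51 to 0.12), and its BMP24h arrays (10.99, 10.99 and 11.07) lay below the control arrays (11.13, 11.18 and 11.34). Ptprz1, which binds pleiotrophin and had the dimmest probe set of the group (3.72 ± 0.20 on control arrays), was 0.29 higher at 24 hr with an interval of -0.31 to 0.90. Ptprg differed by -0.35 at 24 hr, with values of 5.77, 5.65 and 6.47, of which replicate 3 lay above the control range of 6.27 to 6.36. Ptprv, a phosphatase known from bone and testis, had the highest 6 hr difference of the whole group, 0.65, but it came from 7.15 on BMP6h replicate 2, against 5.70 and 5.30 on the other BMP6h arrays. Ptprc, the leukocyte antigen CD45, likewise stood at 7.94 on that array and at 7.17 and 7.00 on the other BMP6h arrays. The remaining 9 receptor phosphatases (Ptpra, Ptpre, Ptprh, Ptprj, Ptprn2, Ptpro, Ptprq, Ptprs and Ptpru) differed from control by -0.29 to 0.22 across both times.

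**Figure D3:**
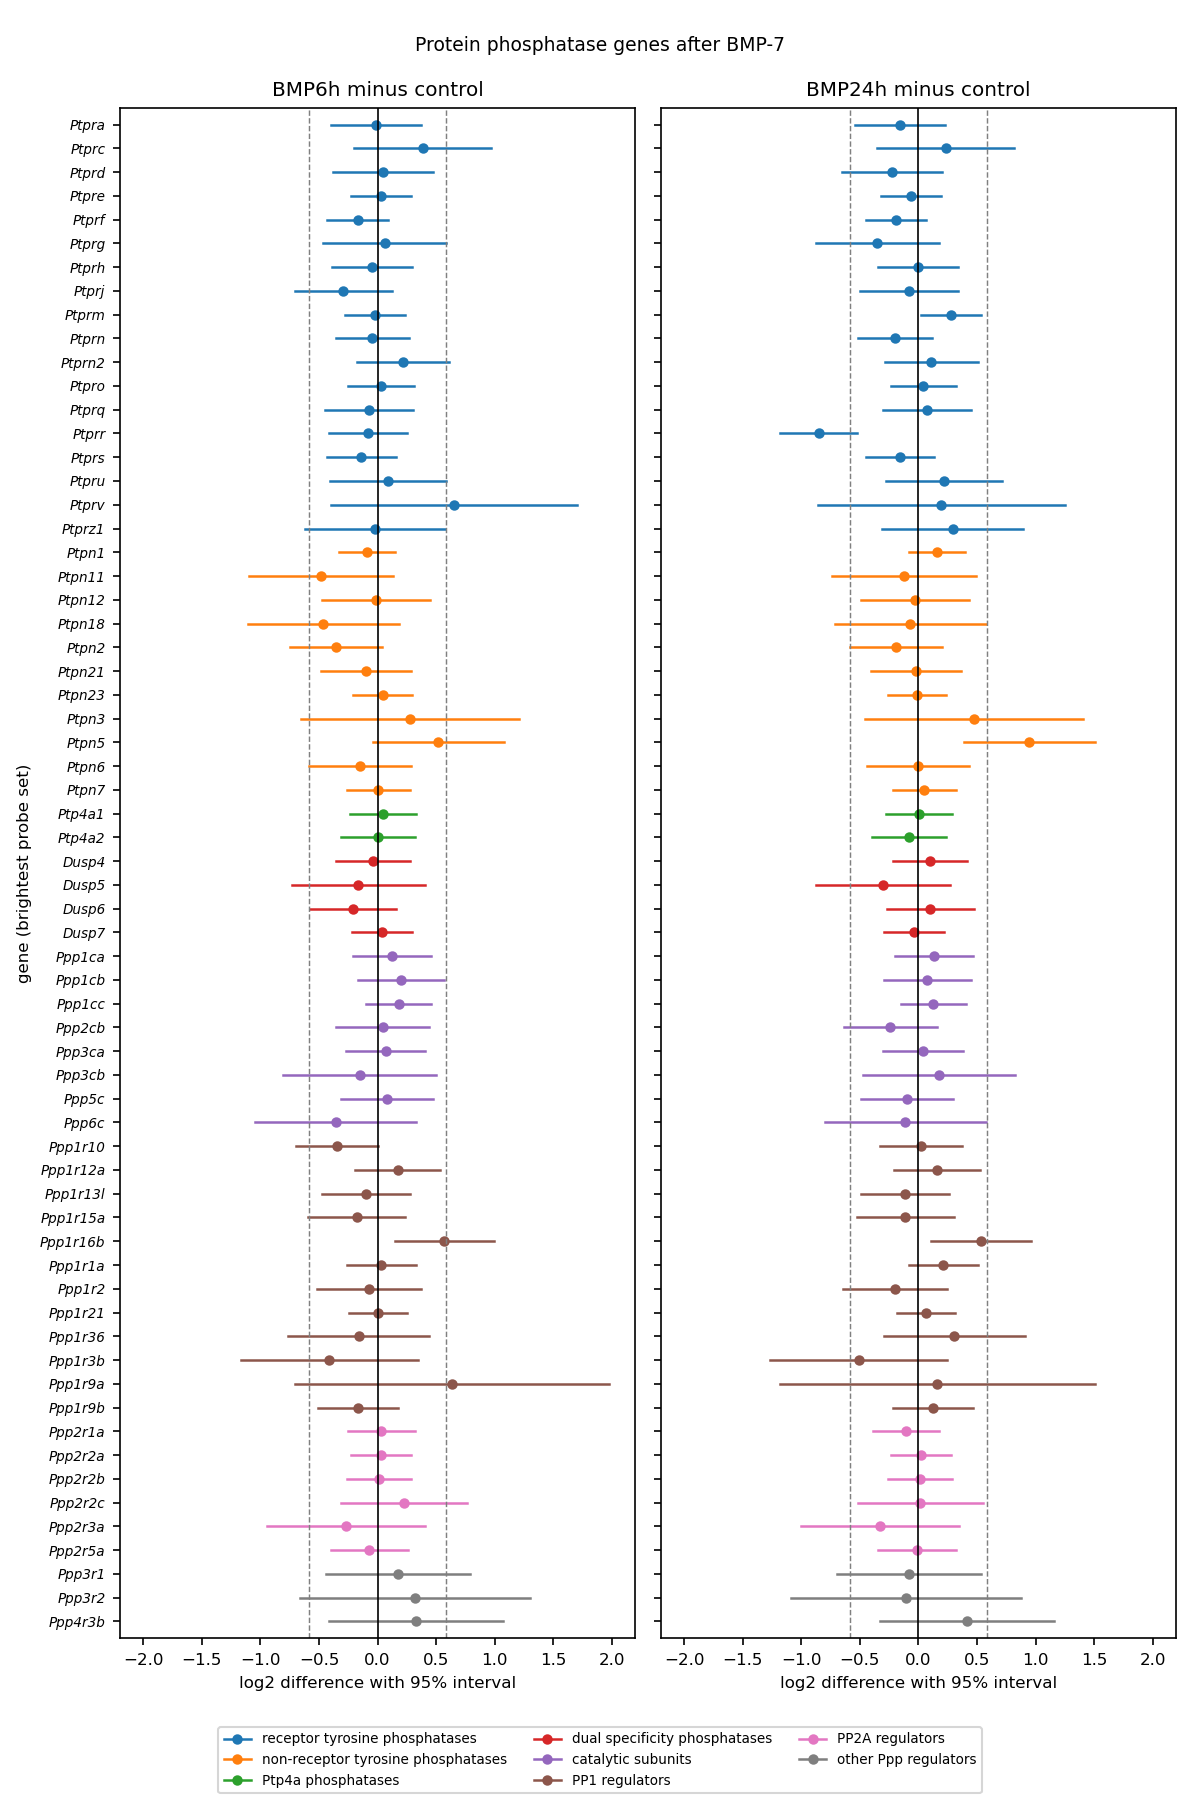
Log2 difference from control with its 95% interval (limma, 3 arrays per condition) for the 64 phosphatase genes at 6 hr and 24 hr, coloured by role; dashed lines mark a 1.5-fold change in each direction. At 24 hr the intervals of Ptprr (-1.19 to -0.52), Ptpn5 (0.39 to 1.50), Ppp1r16b (0.11 to 0.96) and Ptprm (0.02 to 0.53) exclude 0.

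Among the 11 non-receptor tyrosine phosphatases, Ptpn5 was the only gene past the thresholds of the Methods. Ptpn1 encodes PTP1B, which sits on the endoplasmic reticulum and dephosphorylates the insulin and leptin receptors. Its values were 9.98, 9.91 and 9.97 on control, 9.87, 9.81 and 9.90 on BMP6h, and 10.08, 10.12 and 10.15 on BMP24h arrays. The 3 conditions did not overlap, with BMP6h lowest and BMP24h highest, yet the steps were small. The difference was -0.09 at 6 hr, 0.16 at 24 hr and 0.26 between the times, where the unadjusted p was 0.0399 and the 1.19-fold change fell short of 1.2. Across the 3 conditions Ptpn1 had an unadjusted p under 0.005 in the ordinary analysis of variance but not in limma. The study lists Ptpn1 among the genes upregulated by BMP-7. Ptpn11 (SHP2), Ptpn18 and Ptpn2 differed at 6 hr by -0.48, -0.46 and -0.36, with intervals that include 0, and BMP6h replicate 2 was the lowest of the 9 arrays for each, at 4.95, 5.99 and 4.32. Ptpn3 differed by 0.47 at 24 hr, with a standard error that gives an interval of -0.46 to 1.40, and control replicate 3 (4.53) lay far below the other controls (5.69 and 5.93). The other 5 (Ptpn12, Ptpn21, Ptpn23, Ptpn6 and Ptpn7) differed from control by -0.15 to 0.05.

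**Figure D4:**
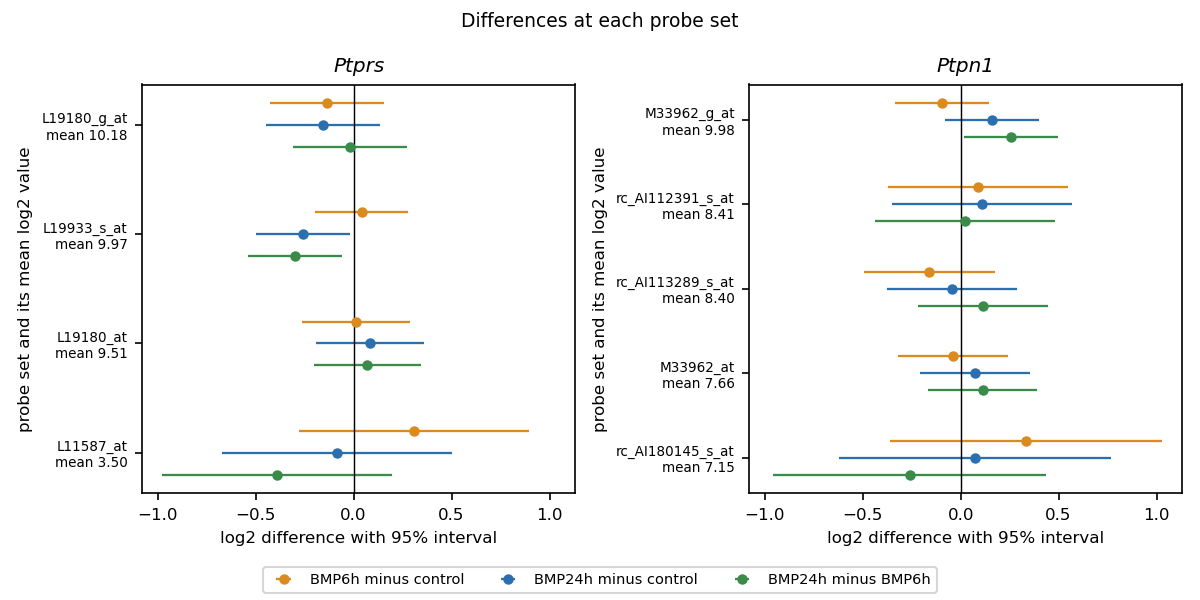
Log2 differences with 95% intervals (limma) at each of the 4 probe sets of Ptprs and the 5 of Ptpn1, ordered from the brightest down, for the 3 comparisons. The probe sets of Ptprs differ in sign, and those of Ptpn1 other than the brightest have intervals that include 0 in every comparison.

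Ptprs, a receptor for sulfated proteoglycans on axons, was the only gene whose other probe sets disagreed with the brightest in a comparison past the thresholds of the Methods. The brightest (L19180_g_at) differed by -0.16 at 24 hr and by -0.02 between BMP24h and BMP6h. A second probe set (L19933_s_at) had values of 10.07, 10.00 and 10.06 on control, 10.08, 10.13 and 10.04 on BMP6h, and 9.76, 9.81 and 9.78 on BMP24h arrays, so that the BMP24h arrays lay below the other 6. Its difference was -0.26 from control and -0.30 from BMP6h (unadjusted p = 0.0212, adjusted p = 0.939 in limma). The study lists Ptprs, at this probe set, among the genes downregulated by BMP-7. Another (L19180_at) gave 0.08 and 0.07, and the last (L11587_at), with a mean of 3.50, gave -0.08 and -0.39. Which transcripts each probe set detects was not examined. Of the 24 genes with several probe sets, 12 in each comparison had differences of 1 sign at all of them. The widest gap was at Ptprc, where the probe sets differed by 1.16 in the 6 hr difference. The 5 probe sets of Ptpn11 differed by up to 0.74 at 24 hr, and none of them passed the thresholds of the Methods.

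The dual specificity phosphatases, most of which inactivate MAP kinases, gave no difference past any threshold. Dusp6, which acts on ERK in the cytoplasm, had 9.04, 8.96 and 9.12 on control, 8.85, 9.02 and 8.63 on BMP6h, and 9.13, 8.94 and 9.37 on BMP24h arrays. The conditions overlapped, and the difference was -0.21 at 6 hr (interval -0.58 to 0.16) and 0.10 at 24 hr. Dusp5, a nuclear ERK phosphatase, differed by -0.16 and -0.30, Dusp4 by -0.04 and 0.10 and Dusp7 by 0.04 and -0.04 at 6 hr and 24 hr. Dusp1, outside the rule above, had higher values at 6 hr at each of its 3 probe sets, by 0.78, 1.32 and 1.14, and the probe set with 1.14 passed the adjusted test (adjusted p = 0.0483 in limma). The study lists Dusp1 at that probe set among the genes downregulated by BMP-7. The deposited values there were in the opposite direction, and also higher than control at 24 hr (0.83). The 6 hr intervals of Dusp4, Dusp6 and Dusp7 ended at or below 0.29 and that of Dusp5 at 0.41. Ptp4a1 and Ptp4a2, small membrane-linked phosphatases, stayed within 0.08 of control at both times, with intervals inside a 1.5-fold change.

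The catalytic subunits of the serine/threonine phosphatases were close to control. Differences of the 8 genes ran from -0.36 to 0.20 at 6 hr and from -0.24 to 0.18 at 24 hr, and none had an unadjusted p under 0.05. The PP1 subunit Ppp1cc had 9.31, 9.24 and 9.32 on control, 9.38, 9.43 and 9.60 on BMP6h, and 9.49, 9.31 and 9.45 on BMP24h arrays. Its BMP6h arrays lay above the control arrays, with a difference of 0.18 (interval -0.10 to 0.46). Ppp1ca and Ppp1cb, the other PP1 subunits, differed by 0.12 and 0.20 at 6 hr and by 0.13 and 0.08 at 24 hr. Ppp2cb, a catalytic subunit of PP2A, differed by 0.04 and -0.24, with 9.41 on BMP24h replicate 2 as its lowest value. The calcineurin subunits Ppp3ca and Ppp3cb, which calcium activates, differed by 0.07 and -0.15 at 6 hr and by 0.04 and 0.18 at 24 hr. Their regulatory subunits Ppp3r1 and Ppp3r2 differed by 0.17 and 0.32 at 6 hr and by -0.08 and -0.11 at 24 hr, and the Ppp3r2 value came from 6.48 on BMP6h replicate 2 against 5.16 and 4.70 on the other BMP6h arrays. Ppp5c and Ppp6c differed by 0.08 and -0.36 at 6 hr, where Ppp6c had 6.70 on BMP6h replicate 2 and 7.60 and 7.73 on the others.

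Of the 12 regulators of PP1, only Ppp1r16b and Ppp1r10 passed the thresholds of the Methods. Ppp1r1a (inhibitor 1, which blocks PP1 when phosphorylated) had 8.07, 8.07 and 8.06 on control and 8.40, 8.33 and 8.11 on BMP24h arrays. The BMP24h arrays lay above the control arrays, with a difference of 0.21 (interval -0.08 to 0.51), and its second probe set gave 0.23. Ppp1r9b (spinophilin, a scaffold that brings PP1 to dendritic spines) had 9.09, 9.01 and 9.10 on control, 8.94, 8.87 and 8.90 on BMP6h, and 9.13, 9.47 and 8.98 on BMP24h arrays. Its BMP6h arrays lay below the other 6, and the difference was -0.17 at 6 hr (interval -0.51 to 0.17) and 0.12 at 24 hr. Ppp1r9a (neurabin, its relative) had a dim probe set with 6.91 on BMP6h replicate 2 against 5.10 and 4.85, and an interval at 24 hr of -1.18 to 1.50 that leaves changes of over 2-fold in either direction possible. Ppp1r3b, which directs PP1 to glycogen, differed by -0.51 at 24 hr (interval -1.27 to 0.24), with control replicate 3 at 5.52 against 4.42 and 4.18. Ppp1r15a, which directs PP1 to the translation factor eIF2 alpha under stress, differed by -0.18 and -0.11, and Ppp1r12a, the myosin-targeting subunit, by 0.17 and 0.16. The other 4 (Ppp1r13l, Ppp1r2, Ppp1r21 and Ppp1r36) differed by -0.20 to 0.31.

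The 6 regulatory subunits of PP2A were close to control at 24 hr, with differences from -0.33 to 0.02 and 5 of 6 intervals within a 1.5-fold change. The scaffold Ppp2r1a had 11.16, 11.16 and 11.34 on control and 11.09, 11.01 and 11.24 on BMP24h arrays (difference -0.11, interval -0.39 to 0.18). Ppp2r2b, the neuronal B subunit, differed by 0.01 and 0.02 with intervals within 0.30 of 0, and Ppp2r2a, Ppp2r2c and Ppp2r5a by -0.07 to 0.22. Ppp2r3a had 6.04, 6.19 and 6.06 on BMP24h arrays, below its control values of 6.38, 6.49 and 6.41, with a difference of -0.33 and an interval that includes 0, and BMP6h replicate 2 stood at 5.46 against 6.26 and 6.75 on the other BMP6h arrays. Ppp4r3b, of the PP4 complex, differed by 0.33 and 0.41 with intervals that include 0.

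Arrays of the compared conditions did not overlap for 8 phosphatase genes at 6 hr (12.5% of 64, beside 10.5% of all named genes), 12 at 24 hr (18.8% beside 13.6%) and 5 between the times (7.81% beside 10.4%). The 12 at 24 hr were Ptpn1, Ptpn5, Ppp1r16b, Ppp1r1a, Ptprm and Ptprz1 on the higher side and Ppp2r3a, Ptprd, Ptprf, Ptprn, Ptprr and Ptprs on the lower. At 6 hr they were Ppp1cc, Ptpn5 and Ppp1r16b on the higher side and Ptpn1, Ppp1r10, Ppp1r9b, Ptprf and Ptprj on the lower. The comparisons with control share the control arrays, and the difference between these shares was not tested.

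**Figure D5:**
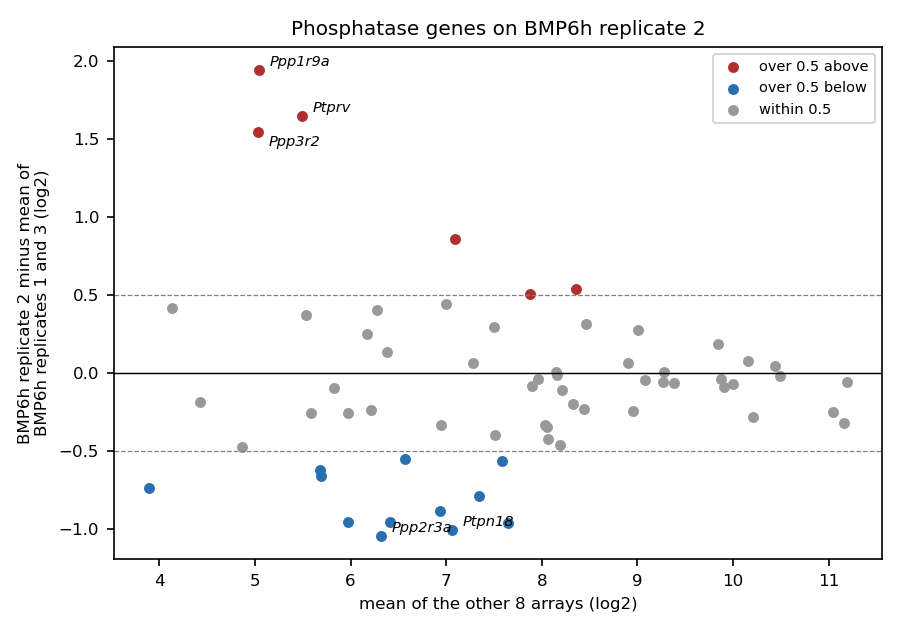
Difference between BMP6h replicate 2 and the mean of BMP6h replicates 1 and 3 for the 64 phosphatase genes (vertical axis, log2), against the mean of the other 8 arrays (horizontal axis, log2). The 46 genes within 0.5 have a median level of 8.18, and the 12 that lie below and the 6 that lie above have medians of 6.49 and 6.30.

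The genes that stood apart on BMP6h replicate 2 were dimmer in the median than the others, but not all were dim. On that array 6 phosphatase genes lay more than 0.5 above the mean of BMP6h replicates 1 and 3, by up to 1.94 (Ppp1r9a), and 12 lay below it, by up to 1.04 (Ppp2r3a). The median level of these genes over the other 8 arrays was 6.30 and 6.49, against 8.18 for the 46 genes within 0.5. Brighter genes stood apart too, such as Ptpn5 (8.35), Ppp5c (7.87) and Ppp6c (7.65). Ptprr was within 0.5 on this array, and its difference between BMP24h and BMP6h was -0.75 without it. Ptpn5 was 0.54 above and so stood apart, and Ppp1r10 was -0.42 from the mean, inside 0.5.

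Genes that work beside these phosphatases also gave no value past the adjusted test at their brightest probe sets. Over all named genes the thresholds of the Methods were passed by 0.908% as higher and 0.887% as lower at 6 hr, 1.77% and 2.05% at 24 hr, and 1.58% and 1.63% between the times, and whether the lists below differ from these shares was not tested. Of 16 measured genes of the MAP kinase cascade, Map3k1, a kinase at its head, passed the thresholds of the Methods with 0.64 at 6 hr and with -0.67 between the times, and Mapk14 (p38 alpha) with -0.30 between the times. None of the 16 passed them at 24 hr against control in limma (0 at an unadjusted p under 0.05), where the median was -0.09. Of 29 measured ligands and partners of receptor phosphatases, 2 were higher and 2 lower at 24 hr by these thresholds. Ptn (pleiotrophin, a ligand of Ptprz1) was 0.55 higher and Cntn2, an axonal contactin, 0.32 higher, whereas Cdh2 (N-cadherin) differed by -0.48 and Sdc1 (syndecan 1, a heparan sulfate proteoglycan) by -0.36. Of 12 inhibitors, anchors and partners of phosphatases, Akap12, an anchor for kinases and phosphatases, passed with -0.42 between the times, and none passed against control (0 at an unadjusted p under 0.05 in limma). Of 11 other phosphatases, Pdp1, which activates pyruvate dehydrogenase, was 0.45 higher at 6 hr, and at its brightest probe set Dusp1 was 0.78 higher at 6 hr and 0.39 at 24 hr.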

How the data were processed

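RNA of 9 samples, each pooled over cultures (3 control, 3 BMP6h, 3 BMP24h), was hybridized to Affymetrix rat expression arrays. The deposited values are log2 expression values. Per the study's methods the authors ran RMA in Partek Genomics Suite and then its batch removal function, and the version of RMA is not given in the sources used here. For any probe set the means of the 2 batches lay within 6.67e-05 of each other, so the batch difference had been taken out before the tests. None of the 9 arrays duplicated another. Values ran from 2.69 to 14.38. Arrays have no read depth, and their number limits the precision.

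Of 8799 probe sets, 59 controls were left out. The platform annotation names 7006 of the other 8740 with 1 symbol, 308 with several and 1426 with none. A linear model with terms for condition and batch (limma 3.58.1, R 4.3.3) left 5 residual degrees of freedom. Benjamini-Hochberg adjustment covered all 8740 probe sets (threshold 0.05), and the thresholds of the Methods were applied to the same fit. Before use, the script was tested on simulated data in which 200 probe sets had been changed.

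The rule for the family, the lists of related genes and markers and the tests were chosen with earlier results of these data known. Genes named are those past any threshold, those in the study's supplementary tables (Ptpn1, Ptprr, Ptprs, Ptpn5, Ptprm and Ppp1r10), the 5 brightest and 5 dimmest on control arrays, the catalytic subunits with the calcineurin regulators, and those whose probe sets disagree. Further genes, picked with their values in view, were named to account for every member. The study's methods draw the conditions of a repeat from 1 dissection, but the labels do not tie the replicate number to it. Within batch 2 the deviations of same-numbered arrays from their condition means correlated at 0.05 (control and BMP6h), 0.02 (control and BMP24h) and 0.40 (BMP6h and BMP24h), so the number was treated as a name. Alternatives were the ordinary analysis of variance, a fit without the batch term, a block for the replicate number, batch 2 alone, removal of dim probe sets, repeated quantile normalization, median centring, an intensity trend, array weights, the compared groups alone, the mean over probe sets and leaving out each array.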

Additional observations from a re-analysis of the deposited data

How the results depend on the processing

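For the 5 genes past the thresholds of the Methods, the 9 differences kept their sign in every alternative run, and over these alternatives 130 results stayed past those thresholds and 50 did not. The count past the adjusted test was 0 in each comparison. For BMP24h against control it became 1 (Ptprr) without the batch term, after removal of dim probe sets and with a trend in the variance, and 4 when arrays were weighted. For BMP24h against BMP6h it became 3 with array weights. By the thresholds of the Methods, the 2 genes for BMP6h against control became 1 with the ordinary analysis of variance, batch 2 alone, median centring, array weights or the compared groups alone, 4 without the batch term, and 0 to 6 when 1 array was left out. The 4 genes for BMP24h against control became 2 with batch 2 alone, 8 with array weights and 2 to 6 when 1 array was left out. The 3 genes for BMP24h against BMP6h became 1 with batch 2 alone or the compared groups alone, 13 with array weights and 1 to 7 when 1 array was left out. The F-test count of 1 became 2 (Ptprr and Ptpn1) with the ordinary analysis of variance, 0 with batch 2 alone, 5 with array weights and 0 to 1 when 1 array was left out. A replicate block used instead of batch gave 0 for the adjusted test in each comparison, 2, 4 and 3 genes by the thresholds of the Methods and 1 for the F-test. Under this block Ptpn2 took the place of Ppp1r10 at 6 hr, no other call changed, and Ptprr at 24 hr had an adjusted p of 0.108 in limma. The fit without the batch term does not count the batch adjustment already made to the values, so its p-values are too small. Array weights ran from 0.0930 (BMP6h replicate 2) to 5.76 (BMP24h replicate 1), so their counts rest on few arrays. Apart from the runs without an array of the condition not compared, why the counts moved was not tested. Removal of dim probe sets left 4370 probe sets and 43 of the 64 genes, and dim probe sets near the lower end of the values cannot show a large fall.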

Other observations

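The alpha catalytic subunit of PP2A was outside the rule, because its 2 probe sets name both Ppp2ca and Ppp2cal1. At 24 hr they differed from control by 0.18 and 0.05, and neither passed the thresholds of the Methods in any comparison.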
